A study of Mus musculus with 6 samples.

Results

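The 8 genes described here are mouse Fc gamma receptors, which bind the Fc part of IgG, and genes of adaptor signalling. The receptors for IgG are the activating Fcgr1, Fcgr3 and Fcgr4 and the inhibitory Fcgr2b. The others are the adaptors Fcer1g and Tyrobp, the Tyrobp-coupled receptor Trem2 and the tyrosine kinase Syk. The 8 genes were taken as every probe that the array files name for any of them. This gave 9 probes of 55681 on the array and 8 genes of 34964. All 8 were among the 25042 genes tested in macrophages. A gene entered the test if 2 or more of the 4 macrophage arrays showed a sample signal that the scanner software marks as well above background.

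The data are 6 two-colour Agilent arrays, each carrying 1 sample in Cy5 and a common reference RNA, pooled from 11 mouse cell lines, in Cy3. KO macrophages (2 arrays) were F4/80+ cells sorted from mammary glands of female mice with a conditional knockout of Dll1, a Notch ligand (strain label C57/B6:cKO-Dll1), and WT macrophages (2 arrays) were F4/80+ cells of their wild type littermates (C57/B6). Dll1-high cells (1 array) were the mCherry+ part, and Dll1-low cells (1 array) the mCherry- part, of the CD24+CD29hi population that the labels call P4 and MaSC, from Dll1-mCherry reporter mice (C57/B6:Dll1-mCherry). All mice were virgin females, and the labels used here give neither an age nor, for the knockout, the Cre driver, the cells it acts in or the deleted exons. They do not say whether the replicates came from separate mice, so the tests measure only the spread between these samples, which may be technical.

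Activating Fc gamma receptors have little or no signalling part of their own. When immune complexes cluster them, the tyrosine motif (ITAM) of the adaptor they sit with, Fcer1g, is phosphorylated by Src-family kinases and recruits Syk, which starts phagocytosis, the oxidative burst and cytokine release. Fcgr2b binds the same complexes but carries an inhibitory motif (ITIM) that recruits phosphatases and dampens the signal. Tyrobp (DAP12) is a second ITAM adaptor. It serves Trem2, a lipid- and lipoprotein-sensing receptor of tissue macrophages, and also signals through Syk.

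Probe sequences are shown for the pair of genes whose KO to WT difference after loess normalization was largest in either direction. Those differences rest on a single spot each. The Fcgr3 probe lies at chr1:172984129-172984188 on the minus strand, and the Tyrobp probe spans chr7:31200651-31202378 on the plus strand across a splice junction (both mm9, per the array files). The capitals in the Tyrobp probe mark 12 bases from position 39 that encode the first tyrosine box (Tyr-Gln-Glu-Leu) of its ITAM.
Fcgr3 probe: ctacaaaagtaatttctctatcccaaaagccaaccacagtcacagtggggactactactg
Tyrobp probe: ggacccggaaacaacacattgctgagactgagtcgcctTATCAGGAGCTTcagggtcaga

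The other probes were at chr3:96086839-96086898 (Fcgr1, minus strand), chr1:172890988-172891047 (Fcgr2b, minus strand), chr1:172959738-172959797 (Fcgr4, plus strand), chr1:173159794-173159853 (Fcer1g, minus strand) and chr17:48491537-48491596 (Trem2, plus strand). Syk had 2 probes, at chr13:52744088-52744147 and chr13:52738924-52738983, both on the plus strand. The probes of Fcgr2b, Fcgr3, Fcgr4 and Fcer1g lie within 268866 bases of chromosome 1. No annotation on mm9 was used, so the exon or UTR under each probe is not stated. Fcgr2b was spotted 10 times on each array, whereas each of the other 8 probes had 1 spot. The extracellular parts of Fcgr2b and Fcgr3 are closely alike in the mouse, and cross-hybridisation between them was not tested.

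The upstream sequences of the 3 activating receptors are shown because these genes share a short element. Whether it bears on their levels was not tested. The element searched was GAGGAA or its reverse complement TTCCTC, the purine-rich core read by the myeloid Ets factor PU.1. RefSeq promoters (GRCm38.p6) were found for 7 of the 8 genes, Tyrobp being the one without an entry. In the 250 bases before the start, 4 of the 7 held the element (Fcgr1, Fcgr3, Fcgr4 and Trem2), against 23.1% of 27025 promoters, and Fcgr2b, Fcer1g and Syk did not. Each of the 4 had it once, as TTCCTC on the gene's own strand. The capitals mark this match, which is a description of letters and not of binding.
Fcgr1, chr3:96293970-96294219, minus strand: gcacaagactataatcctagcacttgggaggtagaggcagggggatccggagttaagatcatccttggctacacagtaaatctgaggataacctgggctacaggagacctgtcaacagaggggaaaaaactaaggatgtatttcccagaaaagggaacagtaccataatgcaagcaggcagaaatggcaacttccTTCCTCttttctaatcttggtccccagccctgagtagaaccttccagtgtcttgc
Fcgr3, chr1:171059404-171059653, minus strand: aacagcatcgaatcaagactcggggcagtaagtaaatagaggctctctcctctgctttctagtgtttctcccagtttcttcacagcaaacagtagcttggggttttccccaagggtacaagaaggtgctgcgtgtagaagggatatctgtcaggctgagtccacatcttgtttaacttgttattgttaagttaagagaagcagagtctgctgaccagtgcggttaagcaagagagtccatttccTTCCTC
Fcgr4, chr1:171018676-171018925, plus strand: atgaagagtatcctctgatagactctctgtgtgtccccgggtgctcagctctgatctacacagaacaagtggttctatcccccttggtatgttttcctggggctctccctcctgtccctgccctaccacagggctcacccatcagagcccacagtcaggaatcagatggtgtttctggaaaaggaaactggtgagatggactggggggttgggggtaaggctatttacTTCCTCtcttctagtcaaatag

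Some arrays stood apart, in ways that touch the values below. The sample signal was well above background on 63.5% and 47.4% of probes on the KO arrays, 71.9% and 50.9% on the WT arrays, 86.0% on the Dll1-high array and 88.1% on the Dll1-low array. The intensity-dependent (loess) normalization, set against the same background-corrected signals before it, changed the log2 ratios of the 8 genes most on WT replicate 1. The change there was -0.039 (Fcgr1) to 2.47 (Fcer1g) with a median of 2.03, against a median of 0.99 over all tested genes on that array. On the KO arrays the members' median change was 0.0090 (7 genes, without Tyrobp) and 0.79, and on WT replicate 2 it was 0.60. On both KO arrays, and on none of the other 4, some spots were dark in the reference channel although the same reference RNA lit them on the other 5 arrays. This held for 767 of 35011 spots on KO replicate 1 (2.19%) and 328 of 33591 on KO replicate 2 (0.976%). The 4 macrophage arrays shared a slide on which the KO samples lay in one column and the WT samples in another, so genotype and slide column cannot be told apart. The CD24+CD29hi arrays were on another slide, and that slide cannot be told apart from the cell type. The Dll1 probe read 0.80 and 2.25 in KO macrophages, against 0.78 and 3.24 in WT macrophages (log2 ratio to the reference). These ranges overlap, and since the deleted part is not stated the probe does not check the genotype.

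The first comparison asked how the 8 genes differ between KO and WT macrophages. Values are log2 ratios of the sample over the reference RNA, so they compare arrays for 1 probe and not 1 probe with another. On average 7 of the 8 genes were higher in KO macrophages, with a median difference of 0.48, while the median over all 25042 tested genes was -0.10 and 40% of them were higher in KO. None of the 8 passed the test: limma's moderated test with Benjamini-Hochberg adjustment over all genes gave an adjusted p of 0.999 for each. It called 0 of 25042 genes (0%) in either direction, and at an unadjusted p under 0.05 it found 32 genes (0.128%), none of them among the 8. The standard errors of the 8 differences were 0.36 to 1.45, and with 2 arrays a side an exact permutation test could not go below p = 0.333 (two-sided).

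**Figure D1:**
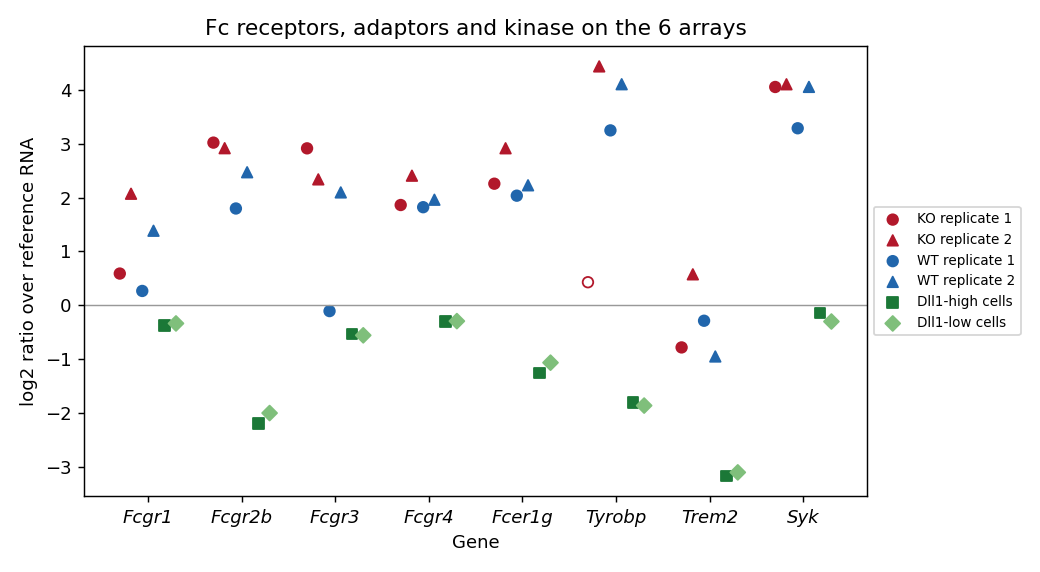
Log2 ratio of sample over reference RNA (vertical axis) for the 8 genes (horizontal axis) on each of the 6 arrays, 1 point per array, with the open circle marking the dark Tyrobp spot of KO replicate 1. After loess the 4 macrophage arrays lie above the Dll1-high and Dll1-low arrays for every gene, while the KO and WT points overlap for 5 of the 8 genes.

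Fcgr3, a low-affinity activating receptor, showed the largest difference after loess. It read 2.91 and 2.34 in KO macrophages, against -0.11 and 2.10 in WT macrophages. Both KO arrays were above both WT arrays, but WT replicate 2 lay 0.24 below its KO neighbour and WT replicate 1 lay 3.02 below, so the mean difference of 1.63 (SE 0.85, 3.10-fold) came mostly from WT replicate 1. Without that array the difference was 0.53. On that array loess changed the Fcgr3 ratio by 0.036, against a median change of 2.03 over the 8 genes. With median centring in place of loess the Fcgr3 difference was 1.77, and that of Fcgr2b, at 1.84, was larger. The raw sample signals were 1471 and 391 scanner units on the KO arrays, against 158.5 and 416 on the WT arrays, over local backgrounds of 60 to 68.

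Fcgr1, the high-affinity IgG receptor, read 0.59 and 2.07 in KO macrophages and 0.27 and 1.38 in WT macrophages. After loess the genotypes overlapped, and each pair of replicates differed more within a genotype than the genotypes did on average (0.50, SE 0.71). Fcgr4, which binds IgG2 subclasses and needs Fcer1g at the surface, was the least variable of the activating receptors between WT arrays after loess. It read 1.86 and 2.41 in KO macrophages and 1.82 and 1.96 in WT macrophages. The difference was 0.24 (SE 0.36), with KO replicate 1 between the WT arrays. Before loess the WT arrays read 0.26 and 1.34 for Fcgr4, further apart than the 0.31 and 1.04 of Fcgr1. The KO arrays then read 2.05 and 1.59 for Fcgr4, and 1.11 and 1.39 for Fcgr1, above both WT arrays for each gene.

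Fcgr2b, the only inhibitory receptor for IgG among the 8, read 3.02 and 2.92 in KO macrophages, against 1.80 and 2.47 in WT macrophages. Both KO arrays were above both WT arrays, and the difference of 0.83 (SE 0.39, 1.78-fold) was the second highest of the 8 after loess. Without WT replicate 1 the difference was 0.50. Its repeated spots varied within an array with an SD of 0.12 and 0.08 on the KO arrays and 0.12 and 0.049 on the WT arrays, which covers spot noise only. Activating and inhibitory receptors were thus both higher in KO on average, and whether their balance differed was not tested.

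Fcer1g, the adaptor of the activating receptors, read 2.26 and 2.92 in KO macrophages, against 2.03 and 2.23 in WT macrophages. The KO arrays were above the WT arrays, by only 0.03 at the closest, with a mean difference of 0.45 (SE 0.39). Without KO replicate 2 the difference was 0.13, and without KO replicate 1 it was 0.78. After loess, Fcgr2b, Fcgr3 and Fcer1g were the 3 of 8 genes whose KO arrays both lay above both WT arrays. Over all tested genes this held for 6.6%, and the opposite, KO below WT, for 13.4%. Before loess, where no share over all genes was taken, it also held for Fcgr1, Fcgr4 and Trem2.

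Tyrobp was the one gene lower in KO on average, and the reading of KO replicate 1 behind this was a dark spot. It read 0.43 and 4.43 in KO macrophages and 3.25 and 4.10 in WT macrophages, a difference of -1.24 (SE 1.45). On KO replicate 1 the reference signal of this spot was 22.5 over a background of 20, while on the other 5 arrays it was 959 to 1223. The sample signal there was 76.5 over a background of 61.5. Of the spots within 10 rows and columns of it that could be judged, 46 of 252 (18.3%) were dark in the same way on that array and none on the other 5. With such spots left out, which was decided after seeing the data, the difference was 0.76 (SE 0.60) from the single KO value of 4.43, and all 8 genes were then higher in KO on average. The Tyrobp spot was the only one of the 8 genes' spots that was dark.

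**Figure D2:**
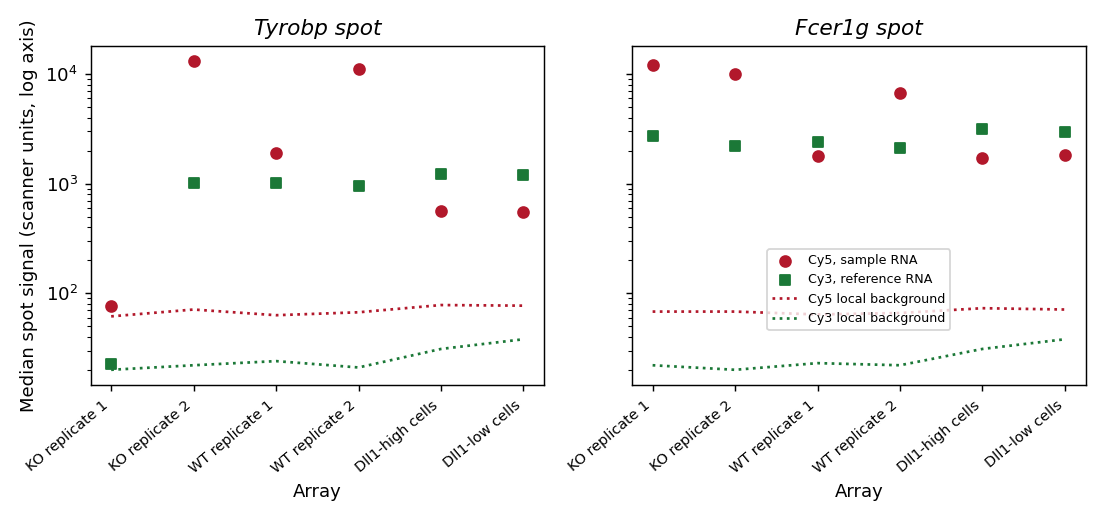
Median Cy5 and Cy3 spot signals (scanner units, log axis) of the Tyrobp and Fcer1g spots on the 6 arrays, with dotted lines for the local backgrounds. The Tyrobp reference signal falls to 22.5 on KO replicate 1 and is 959 to 1223 elsewhere, whereas the Fcer1g spot is bright in both channels on every array.

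Trem2 read -0.78 and 0.57 in KO macrophages and -0.29 and -0.95 in WT macrophages. KO replicate 2 was the highest and KO replicate 1 lay between the WT arrays, so the genotypes overlapped after loess (difference 0.52, SE 0.61). Syk, the kinase downstream of both adaptors, read 4.05 and 4.10 in KO macrophages and 3.29 and 4.05 in WT macrophages by its brighter probe. The KO arrays and WT replicate 2 were nearly level and WT replicate 1 alone was low, with a difference of 0.41 (SE 0.41), and of 0.024 without that array. The dimmer Syk probe read 1.09 and 2.19 in KO macrophages and 0.22 and 2.04 in WT macrophages, a difference of 0.51 (SE 0.79). Its reference signal was above background on 2 of the 6 arrays.

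**Figure D3:**
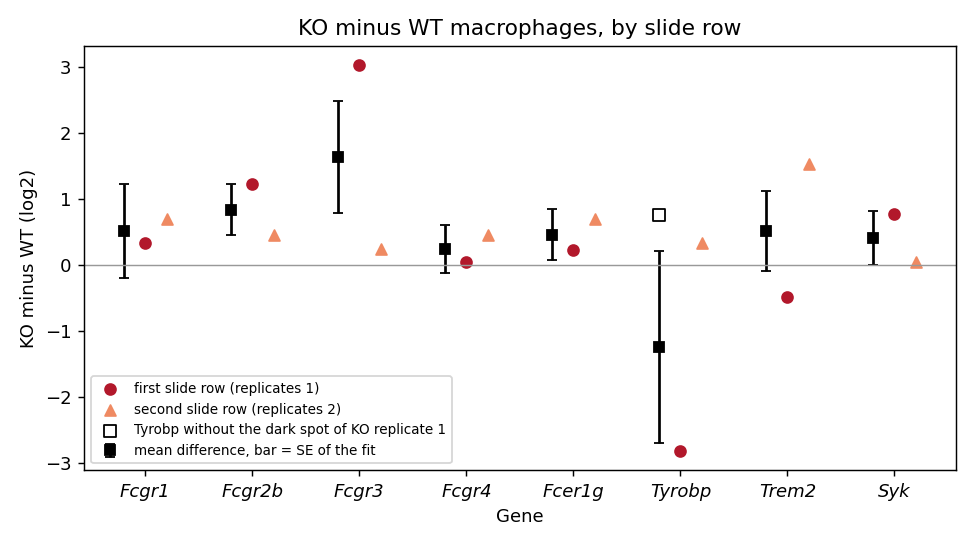
KO minus WT difference in log2 ratio (vertical axis) for the 8 genes: black squares are the mean difference with the standard error of the fit, circles the first and triangles the second slide row, and the open square Tyrobp without the dark spot. Fcgr3 differs by 3.02 in the first row and 0.24 in the second, and Tyrobp by -2.82 and 0.33.

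The slide rows, which coincide with the replicate numbers, gave different pictures. In the second row all 8 genes were higher in the KO sample, by 0.049 (Syk) to 1.53 (Trem2) with a median of 0.45, against a median of -0.01 over all genes. In the first row 6 of 8 were higher, with a median of 0.27 against -0.16 over all genes, and the values ran from -2.82 for Tyrobp to 3.02 for Fcgr3. The median difference of 0.48 depended on single arrays. It was 0.78 without KO replicate 1, 0.049 without KO replicate 2 (4 of 8 genes higher in KO), 0.27 without WT replicate 1 (6 of 8) and 0.67 without WT replicate 2 (7 of 8). With median centring in place of loess the median of all genes became 0.47, and 80% of them were higher in KO. The median of the 8 genes, 7 of them higher in KO, became 1.49, which is 1.03 above that of all genes.

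Marker genes of the sorted cells are given beside these differences. The 12 general macrophage markers, among them Adgre1 (which encodes F4/80), Csf1r and Cd68, were above background on every array. Their median was 3.94 and 3.73 in KO macrophages, against 2.2 and 3.57 in WT macrophages. Of the 12, 11 were higher in KO on average (median difference 0.60), against 40% of all genes, and none passed the test. For 5 of the 12 both KO arrays lay above both WT arrays, against 6.6% of all genes. Single markers ranged from 0.07 to 4.58 and from 0.48 to 5.95 on the KO arrays, and from -0.43 to 4.15 and from 0.92 to 5.57 on the WT arrays. WT replicate 1, the array with the lowest macrophage marker median, also had the highest fibroblast marker median of the macrophage arrays. That median was -0.51 and -0.72 on the KO arrays, against 0.81 and -1.15 on the WT arrays. When each array's macrophage marker median was subtracted from the loess values, only Fcgr3 stayed higher in KO on average (0.68). In the second row, however, 7 of 8 genes did. The subtraction was not repeated with median centring. In sorted material of this kind, fewer macrophages and less RNA per macrophage cannot be told apart, and the part of the marker difference in the members' difference was not tested.

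Markers of other cells that carry some of these receptors were also read. NK cells express Fcgr3 and Tyrobp, B cells Fcgr2b and Syk, and mast cells Fcer1g and Fcgr3. NK cell markers were higher in KO for 6 of 7 tested genes (median 0.43, with 1.12 in the first row and 0.03 in the second) and B cell markers for 7 of 7 (median 0.67, with 1.31 and 0.14 by row). Mast cell markers were higher for 5 of 6 (median 1.06, with 2.14 and -0.04 by row). Monocyte markers were higher in KO for 5 of 7 (median 0.47, with 0.91 and 0.18 by row), neutrophil markers for 5 of 7 (median 0.28, with 1.15 and -0.19) and T cell markers for 6 of 7 (median 0.29, with 0.72 and -0.14). All 6 blood cell lists thus had a higher median in the first row than in the second, and no gene of them passed the test. Over all genes 40% were higher in KO, with a median of -0.10, and of -0.16 and -0.01 by row. With median centring 80% of all genes were higher. Less the median of all genes, the list medians there were 0.062 (NK), 0.58 (B), 0.69 (mast), 0.57 (monocyte), 0.43 (neutrophil) and 0.55 (T cell).

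Tissue cell markers had list medians below 0 after loess, where the median of all genes was -0.10. With median centring 2 of 8 endothelial, 8 of 8 fibroblast and 8 of 8 epithelial markers were higher in KO, against 80% of all genes. Set against the median of all genes there, the endothelial median was -0.48, the fibroblast one -0.023 and the epithelial one 0.11. After loess, endothelial markers were higher in KO for 0 of 8 genes, with a median of -0.87. Of the 8, 4 had both KO arrays below both WT arrays, against 13.4% of all genes. The endothelial array medians were 1.60 and 1.86 in KO macrophages, against 2.78 and 2.95 in WT macrophages. Fibroblast markers were lower in KO for 7 of 8 (median -0.51, with -1.37 and 0.45 by row). Epithelial markers were lower for 5 of 8 and higher for 3 (median -0.28, with -0.79 and 0.13 by row). Over all genes 40% were higher in KO. None of these markers passed the test. The part of any of these cells in the values of the 8 genes was not tested.

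The signalling chain around the 8 genes was followed in 6 further lists, and no gene of any of them passed the test. The lists are described by counts of genes higher in KO on average, against 40% over all genes. Kinases and scaffolds that act with Syk were higher for 18 of 21 tested genes, with a median of 0.54. Of the 21, 6 had both KO arrays above both WT arrays, against 6.6% of all genes. Lat2, a membrane scaffold phosphorylated by Syk, read 2.41 and 2.66 in KO macrophages, against 0.67 and 2.18 in WT macrophages (difference 1.11). Tec, a kinase of the Btk family, read 1.92 and 1.5 in KO macrophages, against -0.18 and 1.42 in WT macrophages (1.09). For both genes WT replicate 1 was the low array. The lowest of the list were Lyn (-0.10), the Src-family kinase that phosphorylates ITAM and ITIM motifs, and the phospholipase Plcg2 (-0.64). Each had a dark reference spot, Lyn on KO replicate 1 and Plcg2 on KO replicate 2, and without those spots Lyn was 1.39 and Plcg2 0.46 higher in KO. The list then stood at 20 of 21. It also did with median centring (median 1.14), against 80% of all genes.

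Receptors that, like Trem2 or Fcgr3, signal through Fcer1g or Tyrobp, and C-type lectins that use Syk, were higher in KO for 12 of 15. Their median was 0.40 (0.89 in the first row, 0.04 in the second). Of the 15, 2 had both KO arrays above both WT arrays, against 6.6% of all genes. With median centring 15 of 15 were higher (median 0.79), against 80% of all genes with a median of 0.47. The beta-glucan receptor Clec7a read 4.72 and 5.26 in KO macrophages, against 3.32 and 4.91 in WT macrophages (0.87), and Clec4d 0.96 and 1.13 in KO macrophages, against -0.53 and 1.19 in WT macrophages (0.72). The lowest were Siglech (-0.39), a receptor of plasmacytoid dendritic cells, and Trem1 (-1.18), an amplifier of inflammation in neutrophils and monocytes. Trem1 read 1.88 and 0.66 in KO macrophages, against 4.61 and 0.29 in WT macrophages, and its probe was also positive in Dll1-high (1.74) and Dll1-low (2.21) cells.

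On the inhibitory side, 10 of 17 tested receptors and phosphatases were higher in KO and 7 lower (median 0.37). Of the 17, 6 had both KO arrays above both WT arrays and 1 had them below, against 6.6% and 13.4% of all genes. With the dark spots left out 11 of the 17 were higher. With median centring 16 were (median 1.02), against 80% of all genes. Ptprc (CD45), the phosphatase that keeps Src-family kinases primed, read 3.14 and 2.94 in KO macrophages, against 1.08 and 2.78 in WT macrophages (1.11). Dok3, an inhibitory adaptor of myeloid and B cells, was 0.86 higher. Cd300a, an inhibitory receptor for membrane lipids, had a difference of -0.81, and its probe read 3.07 in Dll1-high and 3.66 in Dll1-low cells. Dok1, an adaptor that restrains Ras signalling, read -0.66 on the single KO array on which its spot was usable, against 0.83 and 0.64 in WT macrophages (difference -1.40).

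Genes of phagocytosis, the actin cup and the oxidase, the effector end of Fc receptor signalling, were higher in KO for 17 of 19, with a median of 0.23 (0.22 and 0.20 by row). With median centring all 19 were higher (median 1.31), against 80% of all genes. After loess, 10 of the 19 had both KO arrays above both WT arrays, against 6.6% of all tested genes. Myo1f, a leukocyte myosin of the phagocytic cup, read 3.84 and 3.84 in KO macrophages, against 1.85 and 3.65 in WT macrophages (1.09). Fermt3, the activator of leukocyte integrins, read 0.91 and 0.27 in KO macrophages, against -0.91 and -0.03 in WT macrophages (1.06), with no overlap. The lowest were the actin-severing Gsn (-0.12) and the integrin Itgam (-0.58), whose probe, the brightest for that gene, read 2.71 in Dll1-high and 3.10 in Dll1-low cells.

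Genes reported with Trem2 in lipid-laden phagocytes did not lean to either side, with 7 of 15 higher in KO and 8 lower (median -0.11). With the dark spots left out 6 of the 15 were higher and 9 lower (median -0.20). With median centring all 15 were higher (median 0.98, or 0.51 above that of all genes), against 80% of all genes. With the scanner's processed signals 9 were higher (median 0.069). The cystatin Cst7 was 0.73 higher and the difference of the scavenger receptor Cd36 was -0.70. The secreted glycoprotein Spp1 read -3.39 and -3.59 in KO macrophages, against -0.87 and -3.65 in WT macrophages (-1.23), so WT replicate 1 alone was high. Gpnmb, a lysosomal glycoprotein, was 0.95 higher in KO, but on KO replicate 1 its spot was dark, and without that spot its difference was -0.84.

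Receptors for antibody other than the Fc gamma receptors were higher in KO for 7 of 9 tested genes, with a median of 0.20. None had non-overlapping groups, against 6.6% of all genes with KO above WT and 13.4% with KO below WT. With median centring 9 of 9 were higher (median 0.80), against 80% of all genes with a median of 0.47. Fcrlb read 3.10 and 0.14 in KO macrophages, against -0.03 and 0.23 in WT macrophages (1.52), so KO replicate 1 alone was high. Fcrla, which like Fcrlb is an intracellular Fc receptor-like protein of B cells, read 2.44 and 2.63 in KO macrophages, against 0.32 and 2.47 in WT macrophages (1.14). The lowest were Fcrl5 (-0.40), a B cell receptor, and Pigr (-1.22), which carries IgA across epithelia.

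**Figure D4:**
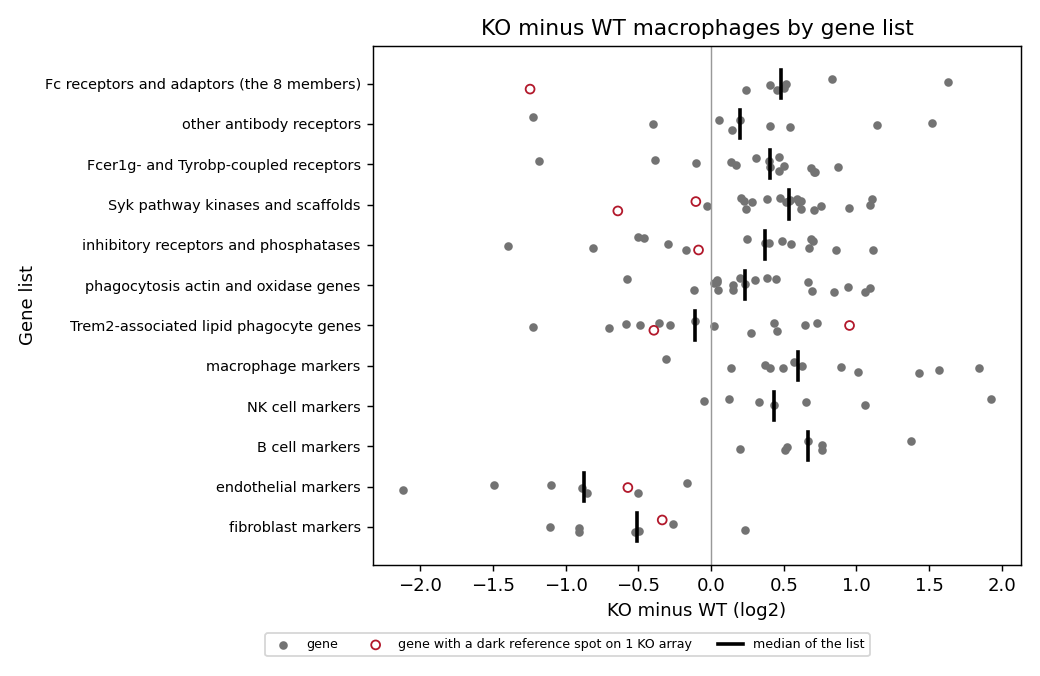
KO minus WT difference in log2 ratio (horizontal axis) of each tested gene, by gene list (vertical axis), with bars for list medians and open circles for genes with a dark reference spot on 1 KO array. Medians of the Syk pathway (0.54) and macrophage markers (0.60) lie right of 0 and that of endothelial markers (-0.87) left of it.

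The second comparison set the macrophages beside the CD24+CD29hi epithelial cells. All 8 genes were higher on each of the 4 macrophage arrays than on the Dll1-high and Dll1-low arrays, which was so for 21.4% of the tested genes. The count was also 8 of 8 with median centring, the scanner's processed signals and the authors' value table, and 7 with the Cy5 channel alone, where the dark Tyrobp spot fell below. With median centring the share over all genes was 6.84%. Before any normalization, WT replicate 1 was not above both of those arrays for 3 genes, Fcgr1, Fcgr3 and Fcgr4, while each of the other 3 macrophage arrays was above for all 8. The mean gap was smallest for Fcgr1 (1.43, 2.70-fold) and largest for Tyrobp (4.89, 29.6-fold, with its dark spot included). It was 4.65 (25-fold) for Fcgr2b, 4.10 (17.1-fold) for Syk, 3.52 (11.5-fold) for Fcer1g, 2.77 for Trem2, 2.36 for Fcgr3 and 2.31 for Fcgr4. These are gaps of ratios to a reference mixture, and the offset added to every signal draws them towards 0 for dim probes. The macrophage marker medians were -0.66 and -0.33 on the Dll1-high and Dll1-low arrays, and the epithelial marker medians there were 2.41 and 2.42. On the macrophage arrays the epithelial medians were 0.09 and -0.13 in KO and 0.67 and -0.05 in WT.

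The third comparison was Dll1-high against Dll1-low cells, with 1 array each and so without a test. Fcer1g read -1.26 in Dll1-high and -1.06 in Dll1-low cells, Fcgr2b -2.19 and -2.0, and Tyrobp -1.81 and -1.86. Trem2 read -3.16 in Dll1-high and -3.10 in Dll1-low cells, and Syk -0.14 and -0.30. Fcgr1 (-0.37 and -0.34), Fcgr3 (-0.54 and -0.56) and Fcgr4 (-0.30 and -0.29) differed by less than 0.05, the first value being that of Dll1-high cells. All 8 differences lay between -0.20 and 0.16. With the scanner's processed signals they lay between -0.28 and 0.20, and Fcgr1 (-0.28), Fcgr3 (-0.12) and Trem2 (0.15) moved most, the last pair to the other sign. None reached 2-fold, which over 32171 genes was passed upwards by 30 (0.0933%) and downwards by 33 (0.103%). The Dll1 ratio itself was 3.94 in Dll1-high and 3.26 in Dll1-low cells.

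The genes whose pattern over the 6 arrays was most like that of Fcer1g were then looked up. Likeness was the root mean square difference of log2 ratios after centring each gene on its own mean, over 24741 genes with a value on every array. The 6 closest were Tlr13 (0.14), an endosomal sensor of bacterial RNA, Tsc22d3 (0.15), a glucocorticoid-induced leucine zipper, Cxcr4 (0.16), the receptor of Cxcl12, Lgmn (0.16) and Ctsh (0.17), lysosomal proteases, and Ifi204 (0.18), an interferon-induced protein. Tlr13, for one, read 3.79 and 4.18 in KO macrophages, 3.40 and 3.84 in WT macrophages, and -0.06 and 0.31 in Dll1-high and Dll1-low cells. Among the other 7 genes Syk came closest to Fcer1g (0.38, rank 107), then Trem2 (0.48, rank 196), Fcgr4 (0.58, rank 320) and Fcgr2b (0.61, rank 357). Fcgr3 (1.00, rank 1164) and Fcgr1 (1.05, rank 1351) were further off, and Tyrobp (1.37, rank 3445) the furthest, with its dark spot included. The measure is dominated by the gap between the 2 cell types, which were on different slides.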

How the data were processed

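Mouse RNA from 6 samples was read on 6 two-colour Agilent arrays with 62976 spots, 3671 of them controls, without dye swaps. The software, per the file headers, was Agilent Feature Extraction, in version 12.0.2.2 for macrophage arrays and 11.0.1.1 for CD24+CD29hi arrays. The submitters' processing notes name 11.0. The spot and background signals are raw intensity values per the file headers, and the processed signals are intensity values corrected for background and dye by the scanner software. The scanner's own log ratio is a log10 value of sample over reference, per the file headers. The deposited value table is on the log2 scale and follows it (slope 1.00 to 1.01, medians -0.117 to 0.139), and its direction is sample over reference.

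The design assumed mean spot signals. The macrophage files gave medians only, so median signals were used throughout. Background was corrected by normexp (offset 50), ratios were normalized by loess within arrays, and spots the scanner software marked as not uniform or as outliers (170 to 500 an array) were dropped, so a gene can lack a value on an array. Spots were averaged to 55681 probes, of which 27509 were named by RefSeq accession and 28172 by the array design, and a gene was read by its brightest probe. KO and WT were compared with limma 3.58.1 in R 4.3.3 (lmFit and eBayes, Benjamini-Hochberg adjustment, threshold 0.05). The same fit over 34923 probes called 0 probes (0%). The fit was also run on simulated data. Calls were required there only for large changes at a spread below that measured, so its power on these arrays was not shown.

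The members and lists were chosen with earlier results of these data known. Named genes were the 8 members, Dll1, the 2 highest and 2 lowest of each of the 6 other lists, any that passed, and the 6 nearest to Fcer1g. Alternatives were the scanner's processed signals, the value table, median centring, Cy5 alone, the mean of all probes, other filters, a replicate block, a robust trend and leaving out each array. Leaving out spots with a dark reference (under 0.1 of the other arrays' median Cy3) was added after seeing the data. The number of arrays limits the precision.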

Additional observations from a re-analysis of the deposited data

How the results depend on the processing

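The test called 0 genes under every alternative run, with 9 to 4590 genes at an unadjusted p under 0.05. Without WT replicate 2 the smallest adjusted p was 0.219. Median centring in place of loess moved the median of all genes to 0.47 (80% higher in KO, against 40%) and the members' median to 1.49, and the Cy5 channel alone gave 0.86. Leaving out each array in turn gave a members' median of 0.049 to 0.78, with 4 to 8 of the 8 genes higher in KO. Dark spots left out put Tyrobp at 0.76, Lyn at 1.39, Plcg2 at 0.46 and Gpnmb at -0.84, with other signs than before. Median centring put above 0 Fcrl5 (0.80), Pigr (0.054), Siglech (0.85), Trem1 (0.064), Plcg2 (0.82), Cd300a (0.43), Gsn (1.19), Itgam (0.71), Cd36 (0.44) and Spp1 (0.041), of which Pigr, Trem1, Cd300a, Cd36 and Spp1 stayed below the median of all genes there, and the Cy5 channel alone turned Gpnmb (-2.05). With 1 array left out, these genes changed sign over the ranges given: Fcgr1 -0.24 to 1.25, Fcgr4 -0.029 to 0.52, Tyrobp -3.25 to 0.76, Trem2 -0.16 to 1.19, Fcrl5 -1.82 to 1.03, Clec4d -0.15 to 1.58, Siglech -1.58 to 0.80, Trem1 -3.34 to 0.98, Lyn -1.60 to 1.39, Plcg2 -1.74 to 0.46, Cd300a -2.95 to 1.32, Gsn -0.57 to 0.33, Itgam -2.72 to 1.57, Gpnmb -0.84 to 2.74, Cst7 -0.060 to 1.51, Spp1 -2.62 to 0.17, Dll1 -1.72 to 0.74. A lone array was then assumed to vary like the other genotype. The cause of these changes was not tested, beyond the dark spots. The requirement of signal above background on all 4 arrays left Tyrobp out. Same-numbered arrays deviated together (r = 0.59 over 24766 genes), but the labels give only a shared number. With the replicate block 0 genes passed (153 at an unadjusted p under 0.05), the members' median was 0.48, and no member's call changed.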
